A study of Mus musculus with 6 samples.

Results

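The 6 genes followed here mark inhibitory neurons of the cortex, and they were read on a spotted oligonucleotide array. They are Gad2 (printed gad65), Pvalb, Calb1, Calb2, Cck and Cort, chosen by name from the printed names, which stand for 276 genes in all, and each had 2 oligonucleotides (oligos). The 12 oligos are part of 590 gene oligos on the array, which was made for genes of neurotransmission. An entry printed GAD67, with 2 oligos, is given beside them. Adult B10D2 mice supplied both tissues: equal amounts of RNA from 6 cortices made up the cortex pool, and RNA from 5 thymi the thymus pool. Each pool was hybridized 3 times, with 15 µg of total RNA labelled with Cy5 by reverse transcription each time, and 1 pool per tissue means that every p-value measures the spread between hybridizations and none the spread between animals. No treatment or genetic change was named for either tissue.

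Inhibitory interneurons release GABA, which glutamate decarboxylase makes from glutamate in a single step. The mouse has a pair of decarboxylase genes: Gad2 encodes the GAD65 protein, found mainly at nerve endings, and Gad1 encodes GAD67. Cortical interneurons are sorted into classes by the calcium-binding proteins parvalbumin, calbindin and calretinin and by neuropeptides such as cholecystokinin, somatostatin, vasoactive intestinal peptide and cortistatin. None of these proteins is fully private to interneurons, since excitatory cortical neurons also make cholecystokinin and some make calbindin.

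Array brightness differed within and between tissues. The median net signal of a gene spot, its foreground median minus its local background median in scanner units, was 2491, 1763 and 816.5 on cortex arrays 1 to 3 and 913.5, 468 and 583.5 on thymus arrays 1 to 3. Of the 590 oligos, 419 to 509 were above background on the cortex arrays and 270 to 393 on the thymus arrays, an oligo being above background where most of its unflagged spots had a foreground median more than 2 background SDs over the local background. The image names in the file headers carried 3 pairs of numbers, and arrays with the same pair were taken to share a scan setting. Cortex 1, cortex 2 and thymus 1 shared the first setting. Cortex 3 and thymus 2 shared the second, with a coarser pixel grid, and thymus 3 had the third alone. The label cortex was checked with neuronal genes outside the set, which are not particular to a class of neurons. All 6 oligos of Eno2, Gria2 and Grin2a were higher in cortex, beside 24.3% of all tested oligos, with a median difference of 3.18 log2 units. No oligo for thymocytes or thymic epithelium was among those analysed here, so the thymus label could not be checked in this way. Pax5, a B cell transcription factor, was higher in thymus on oligo 2, with a cortex minus thymus difference of -2.33 ± 0.35 log2 units (SE from 3 arrays of each tissue, adjusted p = 5.17e-05, limma). Without scaling between arrays this oligo was at -1.59 ± 0.73 and did not pass (adjusted p = 0.098, limma). With centring on the array's class of control genes it passed, at -1.975 ± 0.47 (adjusted p = 0.000194, limma). Pax5 was at -0.30 ± 0.37 on oligo 1, which did not pass (adjusted p = 0.543, limma).

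The inhibitory neuron markers were brighter in cortex almost throughout. Of the 12 oligos, all tested, 11 were higher in cortex and none in thymus by limma with Benjamini-Hochberg adjustment at 0.05, whereas 48% of the 465 tested oligos of the array passed, 24.3% toward cortex and 23.7% toward thymus. Cort oligo 2 was the one that did not pass. The median difference of the 12 was 1.83 log2 units, beside -0.10 over all tested oligos. In 9 of the 12 every cortex array lay above every thymus array, which held for 26.5% of tested oligos, and the reverse for 29.2%. The 3 with overlap were both Pvalb oligos and Cort oligo 2. An oligo entered the test if it was above background on 3 of the 6 arrays, so one that is bright in cortex alone could enter. Of the 12, 6 entered through the cortex arrays alone. Without this filter both Pvalb calls ended (adjusted p = 0.0618 and 0.0648 on oligos 1 and 2, limma), and the other calls toward cortex held. Of the 582 oligos then tested, 19.6% passed toward cortex. Oligos of a gene share that gene, and the count is not one of independent observations. In bulk tissue a difference in the share of cells of a type and a difference in RNA per cell cannot be told apart.

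**Figure D1:**
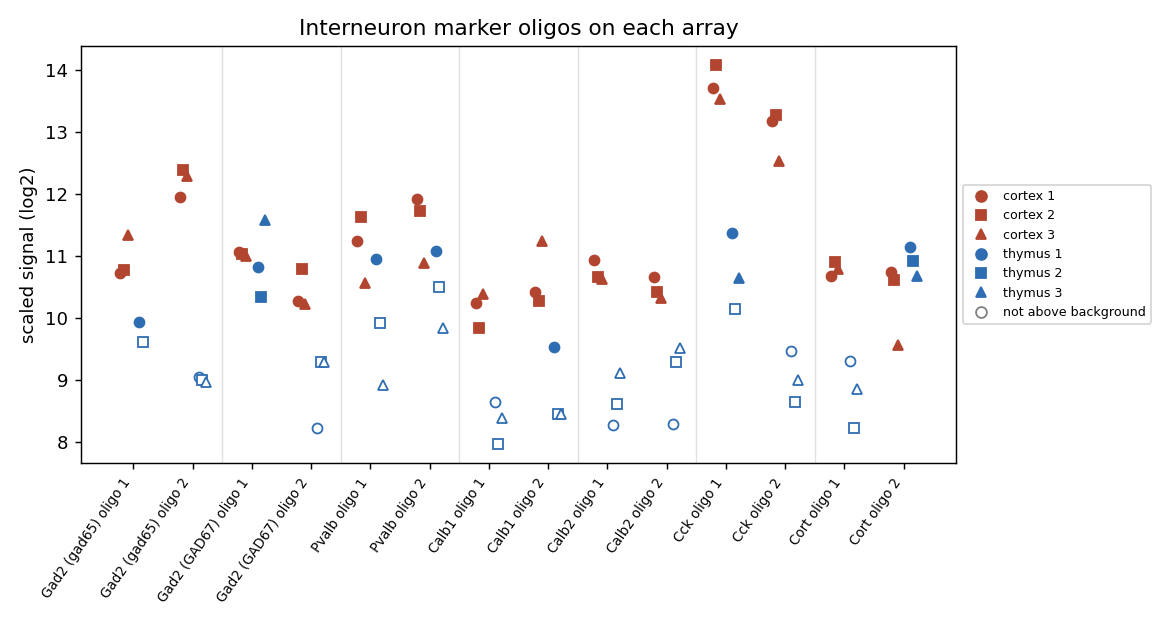
Scaled signal (log2, quantile scaling between arrays) of each marker oligo on each array, cortex in red and thymus in blue, with symbols for the array number and open symbols where the oligo was not above background. The cortex points lie clear of the thymus points for 9 of the 12 marker oligos, and they mix for both Pvalb oligos and Cort oligo 2.

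Detection told the same contrast without any scaling between arrays. Each of the 12 oligos was above background on all 3 cortex arrays, which held for 65.9% of the 590 oligos. On thymus arrays 1 to 3, 6, 1 and 2 of the 12 were above background, beside 66.6%, 45.8% and 47.8% of all oligos. On cortex arrays 1 to 3 the shares of all oligos were 86.3%, 81% and 71%, so oligos in general were also detected more often in cortex. The mean was 12 ± 0 in cortex and 3 ± 2.65 in thymus (SD, n = 3), a difference of 9 oligos for which a two-sided exact permutation test gave p = 0.1, the lowest value possible with 3 arrays against 3. A further count took 6 of the 12, namely Gad2 oligo 2, Calb1 oligo 1, both Calb2 oligos, Cck oligo 2 and Cort oligo 1, which were above background on every cortex array and on no thymus array, as were 11.2% of all oligos. Only Cort oligo 2 was above background on all 3 thymus arrays, beside 35.1% of all oligos. Thymus 1, the brightest thymus array, held most of the markers detected in that tissue, and the part of array brightness in these counts was not tested.

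Scaling between arrays set where 0 lay but not which markers passed. Without scaling, 117 of the 465 oligos passed toward cortex and 0 toward thymus by limma, although 6 had an unadjusted p under 0.05 toward thymus. Centring on the array's class of control genes gave 142 and 28, against 113 and 110 with quantile scaling. The median of all tested oligos was 0.86 log2 units without scaling and 0.48 after centring on the control genes. The same 11 marker oligos passed toward cortex under all 4 scalings, and the median of the 12 lay 1.73 to 1.93 log2 units above the median of all tested oligos. Marker oligos with a value on every array had the same SE without scaling, 0.73 log2 units. With centring on the control genes their SEs were nearly the same, 0.47 to 0.48. Calls in these fits thus follow the size of the difference and not each oligo's own spread, and their p-values add no independent support.

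**Figure D2:**
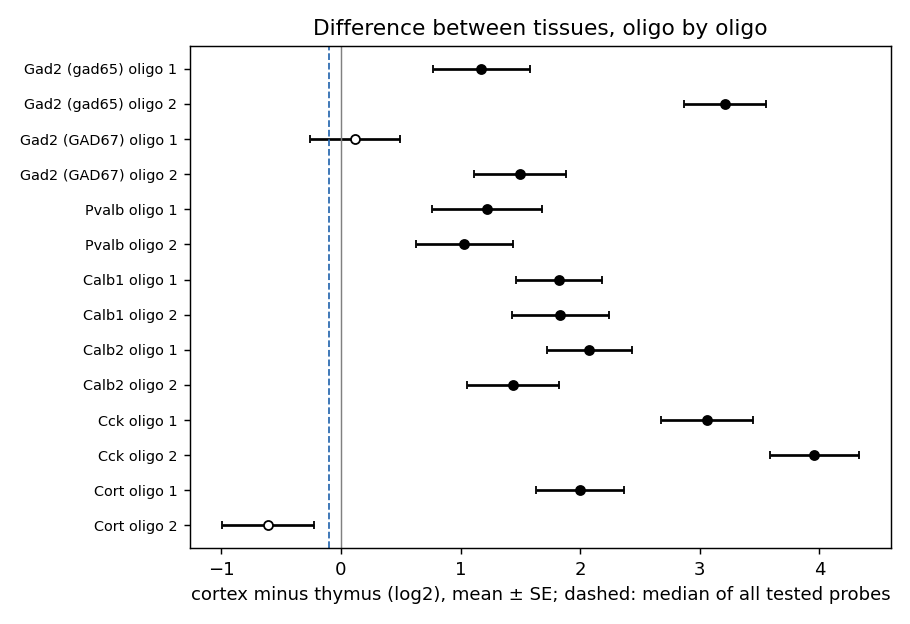
Cortex minus thymus (log2) for each oligo, with bars for the standard error of the limma fit (n = 3 arrays per tissue), filled where the adjusted p was under 0.05. Values run from -0.61 for Cort oligo 2 to 3.96 for Cck oligo 2, and the dashed line marks the median of all tested oligos at -0.10.

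Gad2, the enzyme that makes GABA, had more signal in cortex on each oligo of the entry printed gad65. Oligo 2 had net signals of 9282, 9417 and 3107 on cortex arrays 1 to 3 and of 296.5, 67.5 and 112.5 on thymus arrays 1 to 3. It was bright on every cortex array and not above background on any thymus array. Its difference was 3.21 ± 0.34 log2 units (SE from 3 arrays of each tissue; adjusted p = 1.96e-06, limma). Where an oligo was above background on no thymus array, a fold could be given only as a bound: the cortex mean against, on each thymus array, the higher of its own value and the lowest value among oligos above background there. Gad2 oligo 2 was at least 5.55-fold higher in cortex by this bound.

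Oligo 1 of the gad65 entry had net signals of 3525, 2731 and 1995 in cortex, and of 714.5 and 183 on thymus arrays 1 and 2. Both of its spots on thymus 3 carried a nonzero flag, which the headers do not explain. Flagged spots were taken as bad and left out, so that array gave no value. The cortex arrays lay above both thymus arrays, and thymus 1 was the one thymus array on which it was above background. The difference was 1.18 ± 0.41 log2 units (adjusted p = 0.025, limma), and 1.29 ± 0.35 with flagged spots kept (adjusted p = 0.00849, limma). This call was lost when 1 array was left out: without cortex 2 the adjusted p was 0.0539, without cortex 3 it was 0.0814, without thymus 1 it was 0.0508, and without thymus 2 it was 0.105.

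The oligos of the entry printed GAD67 carry a sequence accession that RefSeq assigns to Gad2, although GAD67 is the protein of Gad1. Oligo sequences were not used here, so which transcript they bind is unknown. GAD67 oligo 2 gave net signals of 2608.5, 2721 and 784.5 in cortex and of 62.2, 137 and 170.5 in thymus. The tissues did not overlap, no thymus array was above background, and the difference was 1.5 ± 0.39 log2 units, at least 1.61-fold (adjusted p = 0.00433, limma). GAD67 oligo 1 gave 4998, 3212.5 and 1423.5 in cortex and 1537, 508 and 1585 in thymus. It was above background on all 6 arrays, thymus 3 lay above every cortex array after scaling, and the difference of 0.12 ± 0.38 log2 units did not pass (adjusted p = 0.843, limma). Without thymus 2 its sign turned, to -0.17. Counted with the markers, the entry would bring the number higher in cortex to 12 of 14.

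Pvalb encodes parvalbumin, the fast calcium buffer of basket and chandelier cells. Oligo 1 had net signals of 5646, 5380 and 1033 in cortex and of 1719, 307 and 110 in thymus. Oligo 2 had 9145, 5901.5 and 1323.5 in cortex and 1869.5, 629 and 406.5 in thymus. On both oligos thymus 1 exceeded cortex 3, before and after scaling, and was the only thymus array above background. The differences were 1.22 ± 0.46 and 1.03 ± 0.41 log2 units (adjusted p = 0.0368 and 0.0439, limma). Both calls ended when scan setting was fitted as a block, where the differences were 0.56 ± 0.28 and 0.59 ± 0.28 (adjusted p = 0.145 and 0.124, limma). They also ended without cortex 1 (adjusted p = 0.0788 and 0.185), without cortex 2 (0.194 and 0.167) and without thymus 3 (0.165 and 0.146), each by limma.

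Calb1 encodes calbindin, a calcium buffer of dendrite-targeting interneurons and of some upper-layer excitatory neurons. Oligo 1 had net signals of 2464, 1251 and 866.5 in cortex and of 188, -51.8 and 26 in thymus. Oligo 2 had 2905, 1852 and 1712 in cortex and 458, 16.8 and 40.8 in thymus. On both oligos all cortex arrays lay above all thymus arrays, and thymus 1 alone reached above background, on oligo 2. The differences were 1.82 ± 0.36 and 1.84 ± 0.40 log2 units (adjusted p = 0.00051 and 0.00128, limma). Oligo 1 was at least 1.33-fold higher in cortex.

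Calb2 encodes calretinin, a calcium buffer of interneurons that largely contact other interneurons. Its oligos were each printed from 2 wells, one on plate 13 and one on plate 14, and their mean gave net signals for oligo 1 of 4581, 2955.5 and 1120 in cortex and of 137, 53.9 and 192 in thymus. For oligo 2 the means were 3646, 2002 and 830 in cortex and 97, 176 and 378 in thymus. Neither oligo overlapped between tissues or was above background on a thymus array. The differences were 2.08 ± 0.36 log2 units, at least 2.01-fold, for oligo 1 and 1.44 ± 0.38, at least 1.66-fold, for oligo 2 (adjusted p = 0.000178 and 0.00546, limma). The bound of oligo 2 rests on leaving out flagged spots: with them kept its difference fell to 0.87 ± 0.34 (adjusted p = 0.0489, limma).

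Wells printed under the same Calb2 oligo identifier did not give the same signal, and the files do not say whether they held identical oligos. For oligo 1 the plate 14 well had net signals of 5968, 4680 and 1355 in cortex and of -96, -49 and 9 in thymus. Its plate 13 well had 3194, 1231 and 884 in cortex and 371, 157 and 374.5 in thymus. The plate 13 well was thus dimmer on every cortex array and brighter on every thymus array. Fitted as oligos of their own, a split chosen after seeing the data, the plate 14 well differed by 3.37 ± 0.36 log2 units (adjusted p = 1.6e-06, limma) and the plate 13 well by 0.87 ± 0.36 (adjusted p = 0.0563, limma). For oligo 2 the plate 14 well differed by 1.61 ± 0.37 (adjusted p = 0.00165, limma). The plate 13 well of oligo 2 had unflagged spots on cortex 1 and thymus 3 alone, at net signals of 5671 and 993, and differed by 0.32 ± 0.66 (adjusted p = 0.735, limma). With flagged spots kept, that well was above background on all 6 arrays and differed by 0.25 ± 0.42 (adjusted p = 0.67, limma). Another 4 oligos on the array had 2 wells, and there the median difference between wells ran from 0.24 to 2.47 log2 units, against 1.03 for Calb2 oligo 1.

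**Figure D3:**
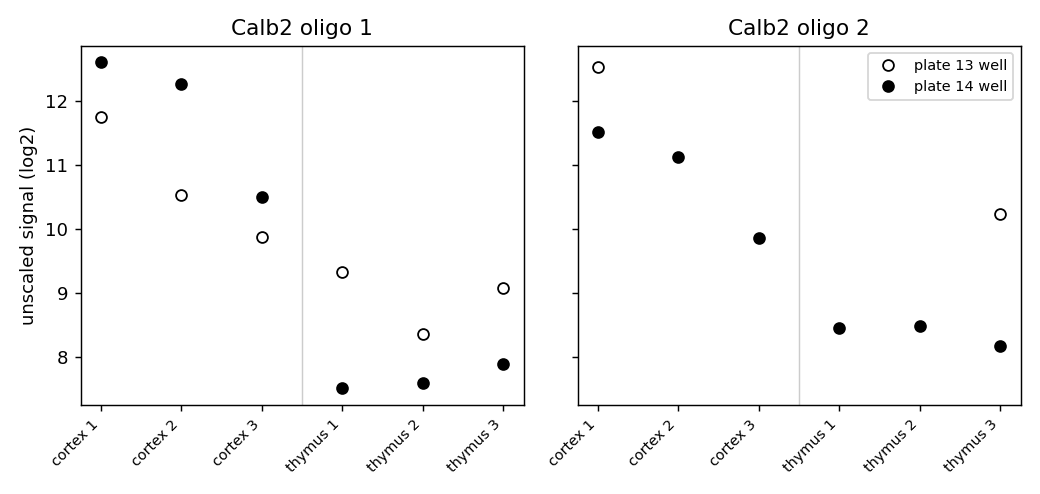
Unscaled background-corrected signal (log2) of the wells of each Calb2 oligo on the 6 arrays, open for the plate 13 well and filled for the plate 14 well. For oligo 1 the plate 14 well is the brighter one on all 3 cortex arrays and the dimmer one on all 3 thymus arrays; for oligo 2 the plate 13 well has values on cortex 1 and thymus 3 only.

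Cck, the precursor of the neuropeptide cholecystokinin, had the brightest signals of the set. Oligo 1 gave net signals of 29232, 29143 and 6911 in cortex and of 2389, 377 and 803 in thymus. Oligo 2 gave 20988, 17138 and 3735 in cortex and 466, 8.8 and 118 in thymus. Even cortex 3, the dimmest cortex array, lay above every thymus array on both. In thymus, oligo 1 was above background on thymus 1 and thymus 3, and oligo 2 on none. The differences were 3.06 ± 0.38 log2 units for oligo 1 and 3.96 ± 0.37, at least 9.09-fold, for oligo 2 (adjusted p = 8.96e-06 and 1.67e-06, limma).

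Cort, the precursor of cortistatin, a peptide related to somatostatin that a subset of cortical interneurons makes, was split between its oligos. Oligo 1 had net signals of 3419.5, 2844 and 1242 in cortex and of 380, -31.8 and 111 in thymus. It was above background on no thymus array, and its difference was 2.0 ± 0.37 log2 units, at least 2.06-fold (adjusted p = 0.000323, limma). Oligo 2 had 3633, 2345.5 and 520 in cortex and 1965.5, 797 and 803.5 in thymus. It was above background on all 6 arrays, the tissues overlapped, and cortex 3 was the lowest of the 6 arrays. Its difference of -0.61 ± 0.39 log2 units did not pass (adjusted p = 0.212, limma), and the sign turned without scaling, to 0.44, and with centring on the control genes, to 0.053.

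The oligos of an entry were compared with each other as the difference between their tissue differences, 7 comparisons in all, each by a two-sided exact permutation test of 3 arrays against 3. In every entry but Pvalb at least 1 oligo was above background on no thymus array, so the gaps are those of the measured signals and their sizes give no order. Oligo 1 minus oligo 2 was 2.61 log2 units for Cort, -2.02 for the gad65 entry with 2 thymus values, -1.38 for the GAD67 entry, -0.89 for Cck and 0.64 for Calb2. In each of these 5 the exact p was 0.1, the smallest possible, and 0.14 after Benjamini-Hochberg adjustment. Pvalb had a gap of 0.19 (exact p = 0.6, adjusted 0.7) and Calb1 of -0.01 (exact p = 1, adjusted 1). No comparison could pass 0.05 in this design.

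Within the scan settings that held both tissues the direction was kept for all 12 oligos. In the first setting, cortex 1 and 2 against thymus 1, Gad2 differed by 0.82 and 3.13 log2 units on gad65 oligos 1 and 2, Cck by 2.53 and 3.75 on oligos 1 and 2, and Cort by 1.49 and -0.47. In the second, cortex 3 against thymus 2, the values were 1.73 and 3.29 for Gad2, 3.39 and 3.88 for Cck, and 2.57 and -1.35 for Cort. Calb1 was at 1.39 and 0.82 in the first setting and at 2.41 and 2.79 in the second. Calb2 was at 2.53 and 2.26 in the first and at 2.02 and 1.02 in the second. Pvalb had the smallest positive values, at 0.50 and 0.74 in the first setting and 0.64 and 0.39 in the second, both below its pooled differences. With 1 thymus array per setting these values have no test.

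Ranks within an array need no scaling between arrays. An oligo's percentile here is its position among the gene oligos of that array by background-corrected signal, and since oligos hybridize with unequal strength, percentiles give no order of transcript levels between genes. On the cortex arrays Cck stood at 96.4 ± 0.7 on oligo 1 and 92.7 ± 3.2 on oligo 2 (SD, n = 3), with its lowest value, 89, on cortex 3 for oligo 2. Gad2 stood at 85.7 ± 2.8 on gad65 oligo 2 and at 66.0 ± 6.3 on oligo 1. Pvalb stood at 69.3 ± 10.1 and 75.5 ± 9.1, Cort at 63.2 ± 2.4 and 51.6 ± 16, Calb2 at 62.2 ± 3.4 and 55.6 ± 4.6, and Calb1 at 47.5 ± 7.1 and 58.8 ± 11.4, each for oligos 1 and 2. The median of the 12 was 64.6 in cortex and 22.2 in thymus, where most of them were not above background.

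Thymus percentiles depended on the oligo, also within a gene. Cck oligo 1 still stood at 60.1 ± 13.6, Cort oligo 2 at 65.6 ± 4.8 and Pvalb oligo 2 at 55.2 ± 14.7 (SD, n = 3). Pvalb oligo 1 ranged from 18.6 on thymus 3 to 66.5 on thymus 1. The 6 oligos above background on no thymus array have no meaningful order there and are not ranked. Cort oligo 2 was the only marker oligo whose mean percentile was higher in thymus than in cortex.

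**Figure D4:**
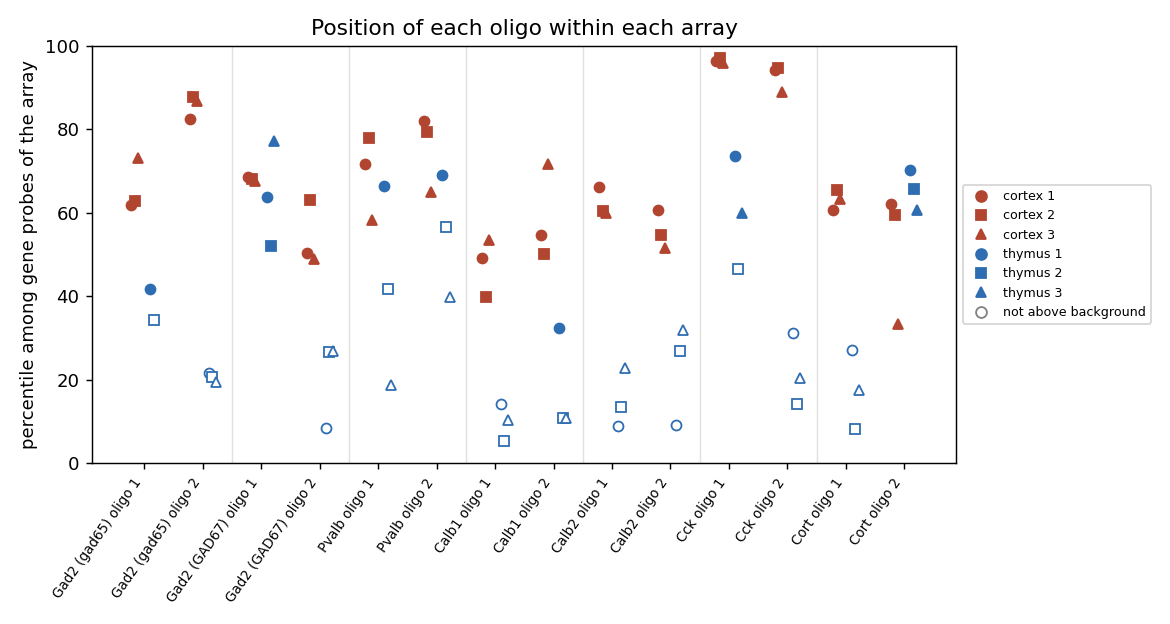
Percentile of each marker oligo among the gene oligos of its array, by background-corrected and unscaled signal, with cortex in red, thymus in blue and open symbols where it was not above background. Cck oligo 1 lies between 95.8 and 97.2 on the cortex arrays, and Cort oligo 2 is the one marker with all 3 thymus points at or above the 60th percentile beside cortex points between 33.2 and 62.2.

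Duplicate spots show how far an oligo repeats within an array. For the marker oligos the median absolute difference between duplicate spots was 0.16 to 0.31 log2 units on the cortex arrays and 0.34 to 0.57 on the thymus arrays. Over all oligos it was 0.29 to 0.35 and 0.39 to 0.49. A flag stood on 1 to 3 of the 28 marker spots on each array, and no unflagged marker spot reached the scanner's ceiling. Spots of the GAD67 entry are not among the 28.

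The genes of the set lie on 5 chromosomes of the mouse genome (GRCm38.p6, RefSeq gene table): Gad2 at chr2:22621015-22693877, Calb1 at chr4:15881264-15906709, Cort at chr4:149125034-149126763, Calb2 at chr8:110142526-110168212, Cck at chr9:121489824-121495694 and Pvalb at chr15:78191112-78206400, all protein coding. RefSeq promoter windows, from 250 bases before to 50 after an annotated start, were at hand for 4 of the 6 genes. They are shown for Gad2 (chr2:22622077-22622376, plus strand), Cck (chr9:121495645-121495944, minus strand) and Cort (chr4:149126714-149127013, minus strand), because these 3 share a motif. Capitals mark TGACG or its other-strand form CGTCA, the short form of the cyclic AMP response element.
Gad2: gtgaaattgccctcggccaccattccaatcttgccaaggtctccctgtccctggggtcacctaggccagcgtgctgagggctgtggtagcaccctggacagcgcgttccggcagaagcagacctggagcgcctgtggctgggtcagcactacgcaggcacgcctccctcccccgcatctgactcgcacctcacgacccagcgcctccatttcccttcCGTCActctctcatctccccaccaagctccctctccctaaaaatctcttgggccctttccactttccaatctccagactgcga
Cck: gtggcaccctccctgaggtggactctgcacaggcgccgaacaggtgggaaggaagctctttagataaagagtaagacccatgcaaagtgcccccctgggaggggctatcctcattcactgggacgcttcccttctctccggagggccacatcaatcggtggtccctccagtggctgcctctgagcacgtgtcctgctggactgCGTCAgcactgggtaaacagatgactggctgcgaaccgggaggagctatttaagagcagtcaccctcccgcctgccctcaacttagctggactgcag
Cort: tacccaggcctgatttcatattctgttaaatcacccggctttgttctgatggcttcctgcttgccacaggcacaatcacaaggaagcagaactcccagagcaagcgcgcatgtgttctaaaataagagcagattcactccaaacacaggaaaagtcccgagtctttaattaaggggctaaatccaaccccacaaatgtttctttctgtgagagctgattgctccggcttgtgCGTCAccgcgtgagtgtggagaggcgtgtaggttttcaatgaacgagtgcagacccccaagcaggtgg
The capitals begin at positions -33 in Gad2, -47 in Cck and -18 in Cort, counted from the annotated start of each window. The Gad2 window, from chr2:22622077, lies within the gene, which begins at chr2:22621015. Those of Cck and Cort span the outer end of their genes. TGACG occurs on either strand in 20.8% of the 32817 RefSeq windows of the same length, and in neither of the 2 Pvalb windows. Of 7 motifs searched on both strands, CACGTG was found in Cck alone and in 7.15% of all windows. The full response element TGACGTCA, which contains TGACG, was in none of the 5 windows of the set and in 1.79% of all. Nor did the set hold the AP-1 site TGACTCA (5.2% of all windows) or the E-box CAGCTG (16.3%). The GC box GGGCGG (35.6%) was also without a match, as was the TATA box TATAAA (13.6%). A match describes letters in a window and does not show that a factor binds there.

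**Figure D5:**
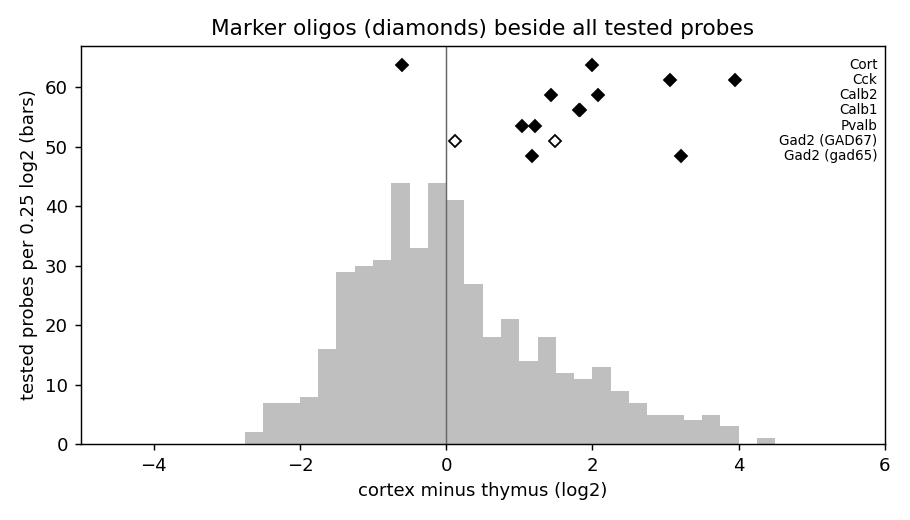
Cortex minus thymus (log2) of all 465 tested oligos as a histogram (bars, number per 0.25 log2 units), with diamonds above it for the marker oligos, one line per entry and open for the entry printed GAD67. Of the 12 filled diamonds, 11 lie to the right of 0, from 1.03 for Pvalb oligo 2 to 3.96 for Cck oligo 2.

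Genes that work with the set were counted by lists of known members, and the oligos named for each list are among those with the smallest p-values. Of 27 tested oligos of GABA receptor subunits, which respond to the transmitter that Gad2 makes, 9 passed toward cortex (33.3%, beside 24.3% of all tested oligos), 3 passed toward thymus (11.1%, beside 23.7%) and 15 did not pass. Their median difference was -0.03 log2 units, near that of all tested oligos. Gabra4 was higher by 3.75 ± 0.39 and 3.26 ± 0.41 on oligos 2 and 1 (adjusted p = 1.93e-06 and 8.96e-06, limma), at least 2.74-fold and 2.69-fold.

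The list of interneuron peptides and the nitric oxide synthase Nos1 held 14 tested oligos, 7 of them passing toward cortex, 2 toward thymus and 5 not at all. Without the Cck and Cort oligos, 4 of 10 passed toward cortex and 2 toward thymus, beside 24.3% and 23.7% of all tested oligos. The 3 smallest p-values of the list were those of Cck and Cort. Sst, the peptide of dendrite-targeting interneurons, and Vip, that of a further class, are named outside the rule, after their values were seen. Sst gave net signals of 11596, 10592 and 2337 in cortex and of 1671, 262 and 263 in thymus on its one tested oligo, and it was higher in cortex by 2.08 ± 0.41 log2 units (adjusted p = 0.000478, limma). Vip oligo 1 gave net signals of 664, 517 and 338.5 in cortex and of 931 and 308.5 on thymus arrays 1 and 2, and was at -1.17 ± 0.41 log2 units (adjusted p = 0.0263, limma). Without scaling it was at -0.22 and did not pass (adjusted p = 0.887, limma). Its other oligo was at -0.56 ± 0.38 (adjusted p = 0.253, limma).

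Receptors for these peptides, with Adcyap1r1 counted among them although its peptide is not in that list, had 16 tested oligos. Of these, 4 passed toward cortex (25%), 5 toward thymus (31.2%) and 7 in neither direction. Both shares were near the 24.3% and 23.7% of all tested oligos. Adcyap1r1, a receptor of the VIP-related peptide PACAP, was higher in cortex by 3.56 ± 0.44 log2 units on oligo 2, at least 4-fold, and by 1.48 ± 0.38 on oligo 1 (adjusted p = 8.52e-06 and 0.00405, limma). Vipr2, a VIP receptor, was at -1.85 ± 0.37 and Sstr3, a somatostatin receptor that also binds cortistatin, at -1.57 ± 0.34, each on oligo 2 (adjusted p = 0.000596 and 0.00115, limma). On oligo 1 they were at -0.98 ± 0.39 and -1.54 ± 0.41 (adjusted p = 0.0479 and 0.00539, limma). The oligos of Cckbr, the main brain receptor of cholecystokinin, are also named after their values were seen. They were at -0.57 ± 0.46 and 0.18 ± 0.35, and neither passed (adjusted p = 0.335 and 0.724, limma).

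Channels and receptors used by interneurons had 25 tested oligos, of which 11 passed toward cortex (44%, beside 24.3% of all tested oligos), 3 toward thymus (12%, beside 23.7%) and 11 in neither direction, with a median of 0.63 log2 units. Chrna4, a nicotinic receptor subunit, was higher by 2.10 ± 0.35 on oligo 2, at least 2.36-fold, and was at 0.36 ± 0.36 on oligo 1, which did not pass (adjusted p = 0.000138 and 0.45, limma). The list of forebrain transcription factors, which act mostly in the embryo, had 8 tested oligos. Of these, 4 were of Dlx genes, of the inhibitory lineage, and 4 of Otx1, Emx1 and Emx2, known mainly from the excitatory lineage. In the limma fit 0 of the 8 passed toward cortex, with 0 at an unadjusted p under 0.05 in that direction, and 0 passed without scaling or with centring on the control genes. Toward thymus 2 of the 4 Dlx oligos and 1 of the other 4 passed, 37.5% of the 8. Over all tested oligos 24.3% passed toward cortex and 23.7% toward thymus, and 8 oligos are too few to set apart from these shares. Otx1 was at -2.47 ± 0.46 log2 units on its one tested oligo (adjusted p = 0.000375, limma). That oligo had no value on cortex 2 and was above background on 1 cortex array. Dlx1 was at -1.11 ± 0.37 on oligo 1 and at -0.56 ± 0.41 on oligo 2, where the tissues overlapped (adjusted p = 0.0196 and 0.282, limma). Dlx2 was at -1.11 ± 0.37 on oligo 2 (adjusted p = 0.0196, limma), but spots on 1 cortex and 1 thymus array had reached the scanner's ceiling.

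Calls toward thymus in these lists depended on the scaling. Without scaling none of their oligos passed toward thymus by limma or had an unadjusted p under 0.05 in that direction, and the standard errors were larger. Otx1 was then at -1.51 ± 0.81 (adjusted p = 0.176, limma). With centring on the control genes 4 oligos still passed toward thymus: Otx1 at -1.88 ± 0.53, Vipr2 oligo 2 at -1.22 ± 0.47, oligo 1 of the entry printed nos1 at -1.52 ± 0.48 and Gabrr2 oligo 2 at -1.52 ± 0.47 (adjusted p = 0.00194, 0.0303, 0.0056 and 0.00548, limma). Oligo 2 of the entry printed nos1 was then at 0.073 ± 0.47 and did not pass (adjusted p = 0.925, limma). Nos1 has another entry on the array, without a printed name. Its oligos 1 and 2 passed toward cortex under that centring, at 2.02 ± 0.47 and 1.92 ± 0.48 (adjusted p = 0.000143 and 0.000306, limma). They also did with quantile scaling, at 1.59 ± 0.36 and 1.39 ± 0.39 (adjusted p = 0.00176 and 0.00771, limma). Counts toward cortex of the GABA receptor, peptide, peptide receptor and channel lists were 9, 7, 4 and 11 with quantile scaling and without scaling. In the same order they were 8, 6, 3 and 11 with centring on the median of gene oligos. With centring on the control genes they were 9, 7, 5 and 14.

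Markers of other brain cells, Slc1a3 and Mbp alone, gave mixed values, with 2 of 4 oligos passing toward cortex and 1 toward thymus. Over all tested oligos 24.3% and 23.7% passed in these directions. Slc1a3, the astrocyte glutamate transporter, was higher in cortex by 1.76 ± 0.39 on one oligo (adjusted p = 0.00128, limma) and at 0.76 ± 0.39 on the other (adjusted p = 0.117, limma). Mbp, of oligodendrocyte myelin, was at 3.66 ± 0.41 on oligo 1 and at -1.44 ± 0.36 on oligo 2 (adjusted p = 4.58e-06 and 0.00347, limma). Mbp oligo 2 did not pass without scaling, at -0.44 ± 0.73 (adjusted p = 0.727, limma). Nor did it with centring on the control genes, at -0.82 ± 0.48 (adjusted p = 0.173, limma). Spots of Mbp oligo 1 reached the scanner's ceiling on 2 cortex arrays, so its signal there is a lower limit. The part of these cells in the marker differences was not tested.

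The oligos most like each marker were found by the root mean square difference between profiles over the 6 arrays, each profile centred on its mean, among 427 tested oligos with 6 values. Such likeness over 6 arrays of 2 pools is a description. Gad2 oligo 2 was nearest to Kcnd2, a potassium channel subunit of dendrites, at 0.32 log2 units, where the median candidate was at 1.73. Calb1 oligo 1 was nearest to Kcnc2, a Kv3 channel, at 0.21, and Calb1 oligo 2 to Grin2d, an NMDA receptor subunit, at 0.17. Cck oligo 1 was nearest to Ntrk3, the neurotrophin-3 receptor, at 0.34, and Cck oligo 2 to an entry printed ca/cal kin2, at 0.40 and 0.44 on its oligos. Calb2 oligo 1 was nearest to Stmn2, a neuronal growth protein, at 0.21. Pvalb oligo 1 was nearest to the dopamine receptor Drd2 at 0.18 and Pvalb oligo 2 to the somatostatin receptor Sstr1 at 0.22. Cort oligo 1 was nearest to Adcyap1r1 at 0.33, and Cort oligo 2 to an entry printed re beta1 at 0.15. The next nearest was slack.rat at 0.35 for Gad2 oligo 2 and katp at 0.25 for Calb1 oligo 1, each named as printed. For Cck oligo 1 it was ca/cal kin2 at 0.39, for Calb2 oligo 1 kir4,1 at 0.28, for Calb2 oligo 2 Stmn2 at 0.25 and for Cort oligo 1 katp at 0.33. Both Pvalb oligos had the entry printed alpha tub as next nearest, at 0.34 and 0.25, and Cort oligo 2 had dop b hydrox at 0.16. Oligo 1 of the gad65 entry lacked a value on thymus 3 and was not compared.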

How the data were processed

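Single-colour Cy5 spot intensities were used as deposited, on the scanner's linear scale, with a local background per spot, per the file headers. The labels and headers used here do not name the software that measured the spots. The deposited value table, intensities that the authors scaled, held no oligo of the set and was not used. Foreground medians were corrected with normexp (offset 50) in limma 3.58.1 under R 4.3.3, flagged and control spots were left out, spots of an oligo were averaged as log2, and arrays were quantile-scaled. Of 590 oligos, 465 had 2 values or more per tissue and were above background on 3 of 6 arrays or more. These were fitted with lmFit and eBayes, two-sided, with Benjamini-Hochberg adjustment over all 465. The number of arrays limits the precision. RefSeq accessions named 8 marker oligos and both GAD67 oligos, and printed names the other 4 (Gad2, Calb2). Promoter sequences are RefSeq's (GRCm38.p6).

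The marker genes, lists and tests were chosen with earlier results of these data known. Named were every oligo of the set, the 3 oligos of each list with the lowest p and the 2 nearest profiles of each marker oligo. Some oligos that this rule took are left out of the text. Sst, Vip, Cckbr, Gabrr2, both Nos1 entries and second oligos of named genes were named after their values were seen. The headers give no key to the spot flag, which was read as a bad spot. The fit was tested on simulated data. Python 3.11.15, numpy 2.4.6, pandas 2.3.3 and matplotlib 3.10.9 were used. Other settings tried were the offset and kind of background correction, scaling, the filter, spot means, flags, the ceiling, blocks, eBayes options and arrays left out.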

Additional observations from a re-analysis of the deposited data

How the results depend on the processing

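Of the 12 marker oligos, 8 to 11 were higher in cortex under the alternatives with a test of all of them, and 0 in thymus. Under a filter to oligos above background on all 6 arrays only Cort oligo 2 was tested, so 0 were higher in cortex and the median was -0.61; that filter by its construction removes oligos dark in thymus. Leaving out 1 array gave 8 to 10 oligos, and medians of 1.53 to 1.96. The median difference was 2.60 both with no background correction and without scaling, 1.58 with median centring, 2.22 both with centring on control genes and within the second scan setting, 1.44 within the first, and 1.55 without cortex 3 and thymus 2, an alternative chosen after seeing the data, as was the split by well. The median of all tested oligos turned to 0.86 without scaling, 0.48 with control genes and 0.054 within the second setting. Cort oligo 2 turned to 0.44 and 0.053 without scaling and with control genes, and GAD67 oligo 1 to -0.16 without cortex 3 and thymus 2, with -0.17 to 0.46 as its range when 1 array was left out. The difference in detected marker oligos was 6.67 at 1 SD of background and 8 to 10.5 with 1 array left out. The median cortex percentile was 65.5 on plain subtraction, 64.7 on spot means and 56.0 among oligos above background. Calls of Cck, Calb1, gad65 oligo 2, Cort oligo 1 and GAD67 oligo 2 held in all 19 tested alternatives each, those of gad65 oligo 1 in 12, and those of each Pvalb oligo in 11. Calb2 calls ended with the plate 13 wells alone. The causes were not tested. The share of all tested oligos higher in cortex ran from 9.68% to 30.5% over the alternatives, and the deposited value table gave no value for the set. No label says that the replicate number pairs a cortex with a thymus array. Deviations of same-numbered arrays correlated at 0.161, -0.0877 and 0.0259 over 440 oligos. With so few arrays this cannot decide whether they were paired. The headers gave cortex 1 and thymus 1 the same date, and every other array a date of its own. With the replicate number as a block, 10 oligos were higher in cortex, gad65 oligo 1 no longer passing at 0.98 (adjusted p = 0.11, limma).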
